A study of Mus musculus with 2 samples.

Results

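The tubular injury markers described here were 9 genes: *Havcr1*, *Krt20*, *Lcn2*, *Clu*, *Sox9*, *Sox4*, *Cd24a*, *Il18* and *Klk1*. They were taken by gene symbol from the 32285 genes counted, with earlier results of these data known, and all 9 had counts in both libraries. The counts came from single-cell RNA-Seq of postischemic mouse kidney on day 14 after 25 minutes of unilateral ischemia. One library came from a Cre- control. The other was labelled PHDTiEC, a Cdh5-CreERT2 genotype with floxed alleles of Phd1 (f/f), Phd2 (f/f) and Phd3 (f/f), in which the *Cdh5* promoter drives a tamoxifen-inducible Cre in endothelial cells. Male mice of 8 to 10 weeks were used, and tamoxifen was given to both genotypes after the injury as 4 injections of 3 mg. With 1 library per genotype there was no replicate, so no p-value could be computed and every 95% interval below covers counting error only.

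Proximal tubule cells that are injured by ischemia lose their transport genes and take up a dedifferentiated program, and cells that fail to redifferentiate keep parts of it. KIM-1, the product of *Havcr1*, is a phosphatidylserine receptor that appears on injured proximal tubule cells, whereas NGAL, the product of *Lcn2*, is made mainly by the distal nephron after injury. *Clu* encodes the secreted chaperone clusterin, *Krt20* an epithelial intermediate filament, *Sox9* and *Sox4* transcription factors of progenitor and regenerating cells, *Cd24a* a surface sialoglycoprotein, *Il18* an inflammasome-processed cytokine and *Klk1* tissue kallikrein, a kinin-releasing protease of the distal nephron.

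Cre- held 136004367 unique molecular identifiers (UMIs, each 1 captured molecule) and the library labelled PHDTiEC 146758812. From these, 8548 and 9309 barcodes passed the filters, and 28 of them had the same sequence in both libraries. No member was among the genes used to cluster the cells, and clusters were named by other markers. The 8 nephron classes were proximal tubule (PT)-like, injured PT-like, thin limb or inner medullary collecting duct (IM-CD)-like, thick ascending limb (TAL)-like, distal convoluted tubule (DCT)-like, collecting duct (CD)-like, intercalated cell (IC)-like and a class with both CD and IC markers (CD-IC-like). Of the marker lists, 7 of 8 PT genes, 5 of 5 injured PT genes, 3 of 4 DCT genes and all genes of the thin limb or IM-CD, TAL, CD and IC lists were seen in at least 10% of the cells of their class. The 8 classes held 2545 and 2697 cells with a median of 20540 and 21388 UMIs, and the median of the CD-IC-like class was more than 2-fold that of the CD-like class (47841.5 and 52047.5 against 16539.5 and 16034 UMIs). In endothelium-like cells, none of the floxed genes had a log2 ratio with an interval below 0: it was 1.57 for *Egln1* (1.34 to 1.81), -0.17 for *Egln2* (-0.52 to 0.18) and 2.62 for *Egln3* (2.27 to 2.99). Counts per gene cannot show the loss of a floxed exon, so the library is called by its label. Levels below are counts per 1000000 UMIs of the class (CPM), and a log2 ratio is the CPM of the library labelled PHDTiEC over that of Cre-.

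The members were highest in different parts of the nephron. For 6 of the 9 the class with the highest level was the same in both. *Havcr1*, *Krt20* and *Sox9* were highest in injured PT-like cells, *Lcn2* and *Clu* in CD-like cells, and *Klk1* in DCT-like cells. *Sox4* (TAL-like, then CD-IC-like) and *Cd24a* (CD-like, then CD-IC-like) were highest in one distal class in Cre- and in another in the library labelled PHDTiEC. *Il18* had its highest nephron level in injured PT-like cells in Cre- and in IC-like cells in the library labelled PHDTiEC, and its neighbouring levels in the order had overlapping intervals in every one of the 7 steps.

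**Figure D1:**
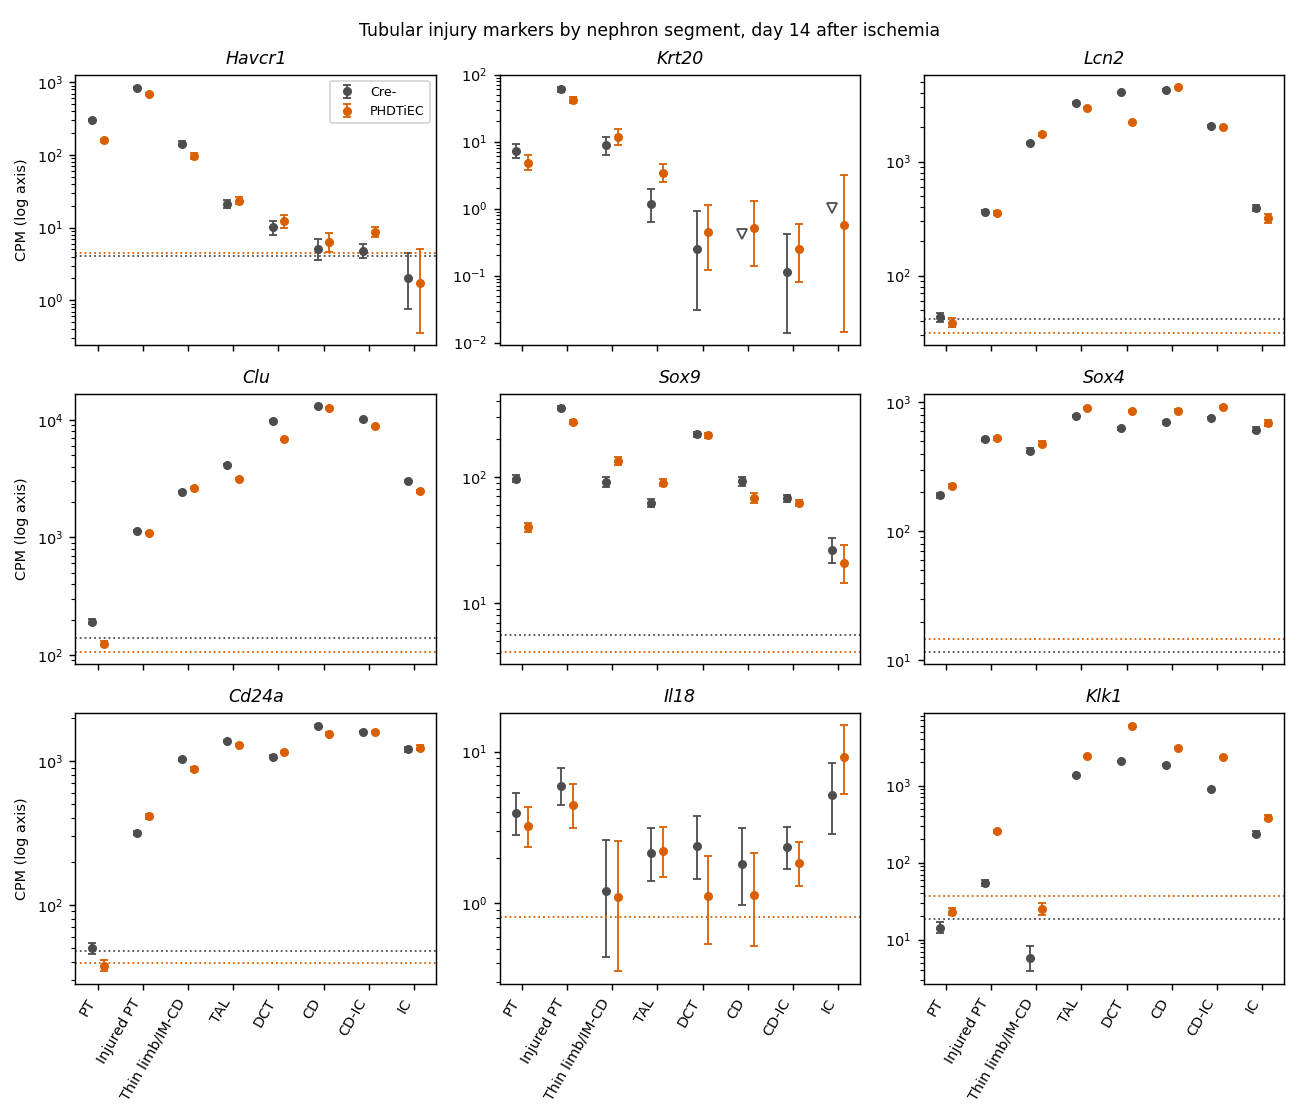
CPM (log axis) of the 9 members in the 8 nephron-like classes, 1 point per library with its 95% Poisson interval; an open triangle is the limit that a count of 0 allows (3 counts), and dotted lines mark the level in T- and NK-like cells of each library where it was above 0. *Havcr1* and *Krt20* peak in injured PT-like cells, *Lcn2*, *Clu*, *Cd24a* and *Klk1* lie more than 10-fold higher in TAL-, DCT-, CD- and CD-IC-like than in PT-like cells, and *Klk1* separates the libraries most.

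T- and NK-like cells are not epithelial, and their counts were taken as a guide to the free RNA in these droplets. In the 555 and 673 cells of this kind, with a median of 3111 and 3234 UMIs, the level was 4.04 and 4.49 CPM for *Havcr1*, 0 and 0 for *Krt20*, 41.4 and 31.4 for *Lcn2*, 140 and 106 for *Clu*, and 5.55 and 4.08 for *Sox9*. It was 11.6 and 14.7 CPM for *Sox4*, 47.9 and 39.6 for *Cd24a*, 0 and 0.816 for *Il18*, and 18.7 and 37.1 for *Klk1*. In PT-like cells, *Lcn2* and *Cd24a* stood near this level and *Klk1* below it in both libraries, so those counts are read as background and not as expression in proximal tubule. *Cd24a* can also be made by lymphoid cells.

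Across the list, 66 of the 72 pairs of member and class had at least 20 UMIs over both libraries. At least 2-fold higher with an interval above 0 were 5 pairs, of which 4 were *Klk1* (injured PT-, thin limb or IM-CD-, DCT- and CD-IC-like) and 1 was *Krt20* (TAL-like). At least 2-fold lower was 1 pair, *Sox9* in PT-like cells. Over all genes and the same classes, 1.43% of pairs were higher and 1.25% lower by the same rule. By class, the share of all genes that was higher and lower was 1.37% and 1.34% in PT-like, 2.49% and 0.918% in injured PT-like, 0.713% and 1.22% in thin limb or IM-CD-like and 1.25% and 1.35% in TAL-like cells. It was 1.73% and 1.32% in DCT-like, 1.36% and 1.54% in CD-like, 1.01% and 1.23% in CD-IC-like and 1.51% and 1.05% in IC-like cells. The pairs of 1 gene share that gene and its libraries and are not independent of each other. Without the pairs at or below the level of T- and NK-like cells in both libraries, 4 were higher, since *Klk1* in thin limb or IM-CD-like cells was left out. After each cell was thinned to 2000 UMIs, the share of cells with a UMI had intervals that were apart in 11 of the 72 pairs. It was higher for *Klk1* in 5 classes and *Sox4* in 4, and lower for *Lcn2* in DCT-like and *Sox9* in PT-like cells.

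*Havcr1* (chromosome 11 of GRCm38, from 46735080 to 46779578) was the clearest proximal marker. In injured PT-like cells it had 846 CPM in Cre- (827 to 866, 7404 UMIs) and 687 CPM in the library labelled PHDTiEC (669 to 705, 5696 UMIs). In PT-like cells it had 305 CPM (294 to 316) and 159 CPM (153 to 166). These classes together held most of the gene's UMIs, with 59.7% and 60.2% in injured PT-like and 25.5% and 22.5% in PT-like cells. The log2 ratio was -0.94 in PT-like cells (-1.02 to -0.86), just short of the 2-fold limit (-1.01, past it, at a mitochondrial limit of 20%), and -0.30 in injured PT-like cells (-0.35 to -0.25).

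In the distal classes *Havcr1* was more than 10-fold lower than in injured PT-like cells and sat in few barcodes. In TAL-like cells it had 21.3 and 23.4 CPM, and in CD-IC-like cells 4.77 CPM in Cre- (83 UMIs in 41 of 356 cells) and 8.71 CPM in the library labelled PHDTiEC (175 UMIs in 39 of 408 cells). The CD-IC-like log2 ratio was 0.87 (0.48 to 1.26), and 1.07 (0.62 to 1.54), past the 2-fold limit, without the top cell of each library. The Cre- level did not exceed that of T- and NK-like cells beyond its interval. The DCT-like ratio of 0.27 (-0.15 to 0.71) was 1.02 when each cell counted equally. In IC-like cells 6 and 3 UMIs were counted, which is at the background.

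*Havcr1* and the transport genes ran in opposite directions within PT-like cells. Cells were thinned to 2000 UMIs and split by whether a *Havcr1* UMI remained. In Cre-, the 103 PT-like cells with *Havcr1* had 1472 CPM of *Slc34a1*, the sodium phosphate cotransporter of the proximal tubule, against 2561 CPM in the 323 without. The same values were 1320 and 2164 CPM in the 116 and 483 cells of the library labelled PHDTiEC. *Vcam1*, an adhesion molecule of injured proximal tubule, was higher with *Havcr1* in both libraries (380 against 162 CPM and 270 against 112 CPM).

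*Krt20* (chromosome 11, from 99428403 to 99438150) was also highest in injured PT-like cells, where its level was more than 10-fold below that of *Havcr1*. It had 60.3 CPM in injured PT-like cells of Cre- (55.2 to 65.6, 527 UMIs) and 41.4 CPM with the PHDTiEC label (37.1 to 46.0, 343 UMIs), a log2 ratio of -0.54 (-0.74 to -0.34). In PT-like cells the levels were 7.32 and 4.87 CPM and in thin limb or IM-CD-like cells 8.80 and 11.8 CPM. The share of injured PT-like cells with a *Krt20* UMI was 49.7% in Cre- and 37.2% in the library labelled PHDTiEC at full depth, and 11.6% and 8.62% after thinning. No *Krt20* UMI was seen in T- and NK-like cells of either library or in CD-like and IC-like cells of Cre-. A count of 0 allows up to 1.51 and 1.22 CPM in the T- and NK-like cells and up to 0.421 and 1.03 CPM in the CD-like and IC-like cells of Cre- (3 counts).

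At 2000 UMIs few injured PT-like cells had a *Krt20* UMI, so few had both *Havcr1* and *Krt20*. In Cre-, 26 of the 188 thinned injured PT-like cells with *Havcr1* also had *Krt20* (13.8%), against 7.55% of the 106 without it. In the library labelled PHDTiEC, 14 of 163 did (8.59%), against 8.66% of the 127 without. These counts are small, and no order is read from them.

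*Krt20* was also the only member other than *Klk1* that was at least 2-fold higher in a nephron class of the library labelled PHDTiEC. In TAL-like cells, 14 UMIs in 6 cells of Cre- (1.16 CPM) stood against 45 UMIs in 15 cells (3.45 CPM), a log2 ratio of 1.58 (0.68 to 2.56). A single cell held 48.9% of the UMIs in the library labelled PHDTiEC and 42.9% of those in Cre-, and without the top cell of each library the ratio was 1.42. When each cell counted equally it was 0.80, under the 2-fold limit.

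*Sox9* (chromosome 11, from 112782224 to 112787760) was highest in injured PT-like cells, with 351 CPM in Cre- (339 to 364) and 271 CPM in the library labelled PHDTiEC (260 to 282), and second in DCT-like cells, with 218 and 214 CPM. In PT-like cells it had 96.7 CPM (90.8 to 103, 1005 UMIs in 180 of 431 cells) against 39.7 CPM (36.4 to 43.2, 530 UMIs in 129 of 599 cells). This was the only pair of member and class at least 2-fold lower in the library labelled PHDTiEC, with a log2 ratio of -1.29 (-1.44 to -1.13), or 2.44-fold.

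The lower *Sox9* level of PT-like cells was seen in cells with and without *Havcr1*. With *Havcr1* it was 151 CPM in Cre- and 59.4 CPM in the library labelled PHDTiEC, and without *Havcr1* it was 76.9 and 35.5 CPM. At 2000 UMIs per cell, 16.2% of PT-like cells of Cre- had a *Sox9* UMI (12.8% to 20.1%) against 4.34% (2.85% to 6.30%), while T- and NK-like cells had one in 0.408% and 0.659%. At a resolution of 0.4, where PT-like and injured PT-like cells formed a single class, the ratio was -0.73 and passed no 2-fold limit.

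Elsewhere the *Sox9* ratios were nearer 0 and had both signs. The log2 ratio was -0.37 in injured PT-like cells (-0.45 to -0.30). It was also below 0 in CD-like cells, at -0.43 (-0.60 to -0.27), but above 0 in TAL-like cells, at 0.54 (0.40 to 0.67), and in thin limb or IM-CD-like cells, at 0.54 (0.37 to 0.72). In DCT-, CD-IC- and IC-like cells it was -0.02, -0.11 and -0.35, with intervals that held 0. In TAL-like cells the CPM was 62.2 in Cre- and 90.1 in the library labelled PHDTiEC. In the thin limb or IM-CD-like class, 52 and 54 barcodes carried at least 20 UMIs of PT and injured PT markers per 10000, and these held 23.8% and 52.1% of its *Sox9* UMIs. Without them the *Sox9* ratio of that class was -0.02.

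**Figure D2:**
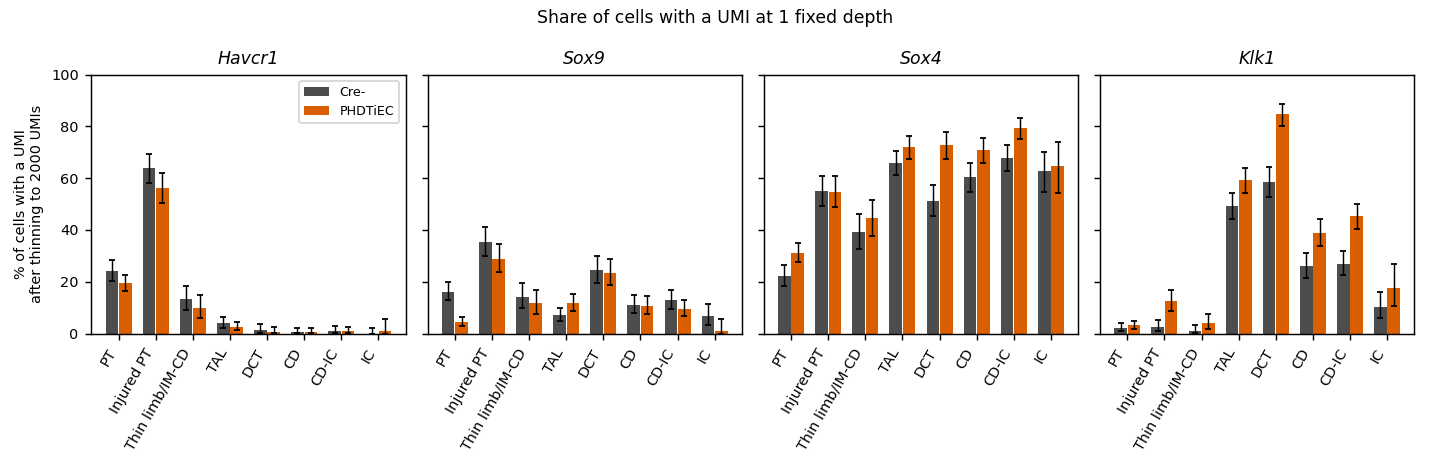
Percent of cells with at least 1 UMI after each cell was thinned to 2000 UMIs, by nephron-like class and library, with exact binomial 95% intervals (counting error only). The *Sox9* bars of PT-like cells (16.2% and 4.34%) and the *Klk1* bars of DCT-like cells (58.7% and 84.6%) are apart by more than their intervals, whereas the *Havcr1* bars overlap in all 8 classes.

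*Sox4* (chromosome 13, from 28948919 to 28953713) was the most evenly spread member. Its highest level exceeded its lowest only 4.14-fold in Cre- and 4.11-fold in the library labelled PHDTiEC, where *Havcr1* spanned 412-fold and 399-fold. It stood at 787 and 906 CPM in TAL-like, 627 and 855 CPM in DCT-like, 701 and 861 CPM in CD-like and 750 and 921 CPM in CD-IC-like cells. The log2 ratio lay between 0.16 and 0.45 in 7 classes, each with an interval above 0 (but -0.0004 in PT-like cells at resolution 0.4, where they were joined with injured PT-like cells), and was 0.02 in injured PT-like cells (-0.04 to 0.08). In thinned DCT-like cells the share with a *Sox4* UMI was 51.2% (45.3% to 57.2%) and 72.7% (67.2% to 77.7%). These were differences of less than 2-fold.

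*Lcn2* (chromosome 2, from 32384633 to 32388252) was a distal transcript in this kidney. It had 4245 and 4471 CPM in CD-like, 3261 and 2958 CPM in TAL-like, and 2066 and 1990 CPM in CD-IC-like cells. PT-like cells, at 42.9 and 38.7 CPM, did not stand clear of T- and NK-like cells. DCT-like cells held the largest *Lcn2* difference, with 4039 CPM in Cre- (3995 to 4083) and 2210 CPM in the library labelled PHDTiEC (2179 to 2241). Its log2 ratio was -0.87 (-0.90 to -0.84), and it was -0.34 at resolution 0.4 and -1.02, past the 2-fold limit, at a mitochondrial limit of 20%. Per 10000 UMIs, the median DCT-like cell had 18.2 and 7.61 of *Lcn2*, and the share of thinned cells with a UMI was 74.6% and 63.1%.

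In injured PT-like cells *Lcn2* depended on single barcodes. The levels were 364 and 354 CPM (log2 ratio -0.04, -0.11 to 0.03), but 1 cell held 39.8% of the 3184 UMIs of Cre-. Without the top cell of each library the ratio was 0.55, and without barcodes that carried distal markers it was -0.45. No direction is given for *Lcn2* in these cells.

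*Clu* (chromosome 14, from 65968483 to 65981547) was the most abundant member. CD-like cells had 13003 CPM in Cre- and 12701 CPM in the library labelled PHDTiEC, CD-IC-like cells 10081 and 8808 CPM, and DCT-like cells 9851 and 6820 CPM. Injured PT-like cells had 1133 and 1083 CPM, well above PT-like cells at 192 and 124 CPM. The ratio was below 0 in PT-like (-0.62), DCT-like (-0.53) and TAL-like cells (-0.41) and near 0 in injured PT-like (-0.06) and CD-like cells (-0.03). In injured PT-like cells, the barcodes with at least 20 distal marker UMIs per 10000 (15 in Cre- and 33 in the library labelled PHDTiEC) held 34% and 54% of the *Clu* UMIs, and without them the ratio was -0.44. In PT-like cells of the library labelled PHDTiEC the *Clu* level was close to the 106 CPM of T- and NK-like cells. Free RNA, estimated from neutrophil and macrophage markers, came to 115% of the PT-like *Clu* level in Cre- and 151% in the library labelled PHDTiEC. The PT-like *Clu* counts are therefore also read as background, and their ratio not as a difference in these cells.

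*Cd24a* (chromosome 10, from 43578284 to 43584265) was lowest among the nephron classes in PT-like cells, at 49.7 and 37.7 CPM. It had 317 and 412 CPM in injured PT-like cells and 1749 and 1558 CPM in CD-like cells. Its ratios were small, between -0.40 in PT-like and 0.38 in injured PT-like cells (0.31 to 0.45), where it was 0.30 without the barcodes with distal markers. The injured PT-like difference was not in the same direction as those of *Havcr1*, *Krt20* and *Sox9* in the same cells.

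*Il18* (chromosome 9, from 50554827 to 50581840) was barely counted in the nephron. Immune-like cells held 62.8% of its 803 UMIs in Cre- and 65.4% of its 728 UMIs in the library labelled PHDTiEC, and the 8 nephron classes held 26.5% and 25.5%. Macrophage-like cells had 19.1 and 15.7 CPM, against 5.95 and 4.46 CPM in injured PT-like and 5.13 and 9.18 CPM in IC-like cells. All 7 *Il18* ratios with at least 20 UMIs had an interval that held 0, so a difference was not detectable at this depth. The ratio farthest from 0 was DCT-like, with 19 and 10 UMIs and a ratio of -1.10 (-2.37 to 0.08). It passed the 2-fold rule at a mitochondrial limit of 20%, with TMM scaling and without the top cells. With cells weighted equally and with free RNA subtracted the ratio was past 2-fold, but no interval was computed there.

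**Figure D3:**
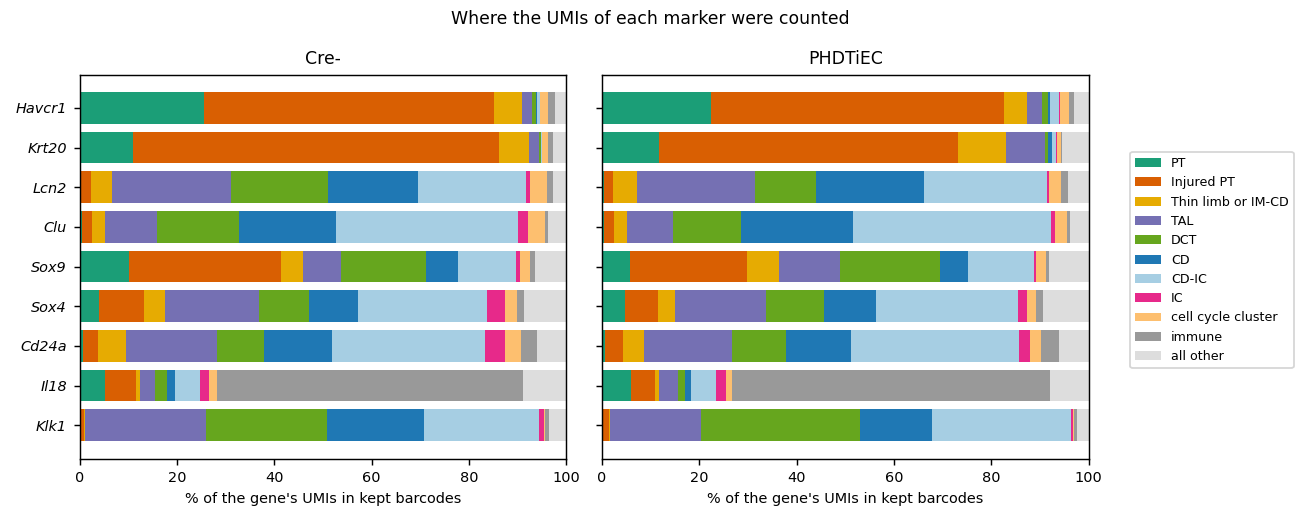
Share of each member's UMIs (percent of the UMIs in kept barcodes) by class, 1 bar per gene and library. *Havcr1* and *Krt20* sit mostly in PT-like and injured PT-like cells, *Lcn2*, *Clu*, *Cd24a* and *Klk1* mostly in TAL-, DCT-, CD- and CD-IC-like cells, and *Il18* mostly in immune-like cells.

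*Klk1* (chromosome 7, from 44225360 to 44229618) was the member that differed most between the libraries. It belongs to a cluster of related kallikrein genes on that chromosome. Of the 411 windows of 90 bases in the last 500 bases of its transcript, 56 (13.6%) also occurred in another gene. For each of the other 8 members it was 0 of 411. The last 60 coding bases, each within 1 exon on the plus strand, are shown for *Klk1* (44229510 to 44229569) and for the copies with the next most UMIs, *Klk1b9* (43980269 to 43980328) and *Klk1b5* (44220595 to 44220654), because they show how far the copies can be told apart. Sequences are those of GENCODE vM21 on GRCm38, 5′ to 3′, and capitals mark bases that differ from *Klk1*.
Klk1: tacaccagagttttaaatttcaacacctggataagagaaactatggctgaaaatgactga
Klk1b9: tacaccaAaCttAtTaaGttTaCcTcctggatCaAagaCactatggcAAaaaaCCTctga
Klk1b5: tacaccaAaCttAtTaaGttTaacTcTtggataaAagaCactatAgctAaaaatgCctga

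*Klk1b9* differed at 16 and *Klk1b5* at 13 of these 60 bases. *Klk1* took 222939 of the kallikrein UMIs in the 8 classes (96.9%), *Klk1b9* 2333 and *Klk1b5* 1385. Reads from the shared stretches cannot be assigned, so the values of the copies are uncertain. In DCT-like cells the level of *Klk1b9* was 29.4 and 75.5 CPM, with a ratio of 1.36 (1.14 to 1.58). That of *Klk1b5* was 14.8 and 27.7 CPM, with a ratio of 0.90 (0.58 to 1.23).

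The *Klk1* ratio was above 0 in all 8 classes, each with an interval above 0. The IC-like ratio was not above 0 with free RNA subtracted or at a mitochondrial limit of 20%. PT-like and thin limb or IM-CD-like levels lay under that of T- and NK-like cells, and subtracting free RNA left no value there. In injured PT-like cells most *Klk1* UMIs sat in few barcodes. In DCT-like cells it had 2071 CPM in Cre- (2039 to 2102) and 6007 CPM in the library labelled PHDTiEC (5956 to 6058), or 2.90-fold. The ratio was 1.54 (1.51 to 1.56). The median DCT-like cell had 5.58 and 42 *Klk1* UMIs per 10000, and after thinning 58.7% and 84.6% of DCT-like cells had one. The cell with most *Klk1* UMIs held 3.89% and 3.17% of those of the class.

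The other distal classes followed. CD-IC-like cells had 897 and 2345 CPM (ratio 1.39, 1.36 to 1.41), TAL-like cells 1357 and 2386 CPM (0.81), CD-like cells 1858 and 3104 CPM (0.74) and IC-like cells 235 and 385 CPM (0.71). In IC-like cells 1 cell held 31.4% and 37.2% of the UMIs, and the ratio was -0.01 with free RNA subtracted and -0.0003 at a mitochondrial limit of 20%, but 1.22, past the 2-fold limit, when each cell counted equally. Free RNA differed between the libraries too: *Klk1* stood at 489 CPM in the barcodes under 100 UMIs of Cre- and at 1067 CPM with the PHDTiEC label. The part of free RNA in the *Klk1* ratios of cells with a low level cannot be told apart from their own counts, but in DCT-like cells the estimated free RNA was 1.64% and 1.25% of the level.

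In injured PT-like cells *Klk1* had 53.7 CPM (49.0 to 58.8) and 255 CPM (244 to 266), a ratio of 2.25 (2.10 to 2.39). These UMIs sat in few barcodes. In Cre-, 5 of 294 barcodes with at least 10 *Klk1* UMIs held 411 of 470 UMIs, and in the library labelled PHDTiEC 22 of 290 held 1969 of 2114. Those barcodes carried a median of 45.9 and 36.9 UMIs of TAL, DCT, CD and IC markers per 10000, against 1.55 and 1.28 in the rest, and had a median of 63433 and 43085.5 UMIs, against 21010 and 20968.5. The remaining injured PT-like cells had 6.96 and 19.8 CPM of *Klk1*, which is below the T- and NK-like level in each library. They were chosen for having under 10 *Klk1* UMIs, so a low level follows in part from that choice. Without barcodes scored as doublets the ratio was 2.17, and without barcodes with at least 20 distal marker UMIs per 10000 it was 2.85. Only 20.1% and 19.9% of simulated doublets passed the doublet threshold, so doublets can remain after the first of these filters. The second filter left out 88.3% and 84.0% of the *Klk1* UMIs of the class, so 2.85 rests on the few that remained. Over the whole class, the estimated free RNA was 63.3% and 33.9% of the *Klk1* level. The part of distal RNA in the injured PT-like *Klk1* difference was not tested.

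**Figure D4:**
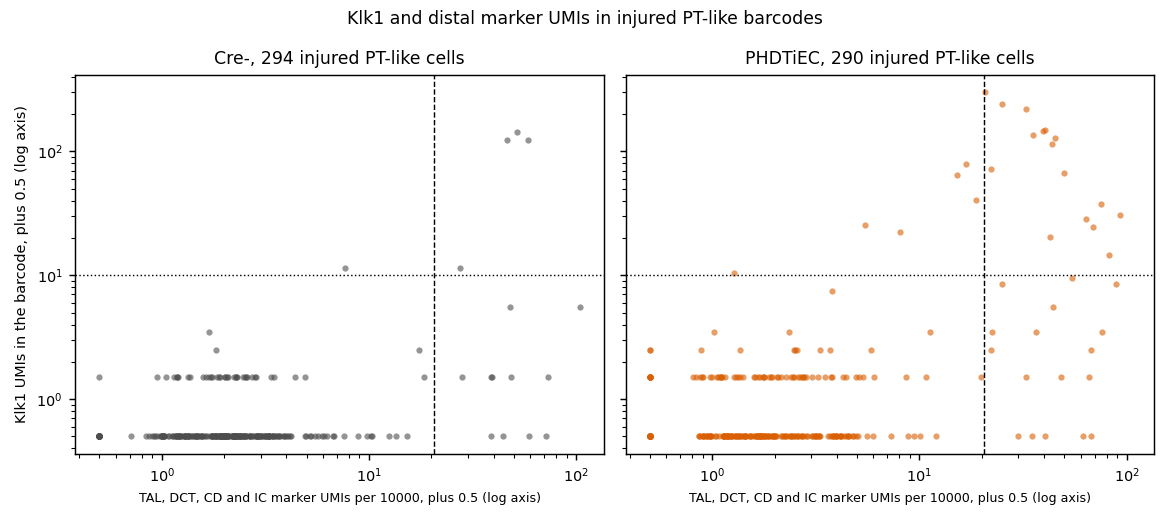
*Klk1* UMIs per barcode against UMIs of TAL, DCT, CD and IC markers per 10000 in injured PT-like cells of each library (both axes log, 0.5 added); the dotted line marks 10 *Klk1* UMIs and the dashed line 20 marker UMIs per 10000. Most barcodes over the dotted line lie near or beyond the dashed line, 5 barcodes in Cre- and 22 in the library labelled PHDTiEC are over the dotted line, and the other cells have few *Klk1* UMIs.

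In PT-like and thin limb or IM-CD-like cells *Klk1* was at background. It had 14.2 and 23.1 CPM in the former and 5.80 and 25.2 CPM in the latter, both under the level of T- and NK-like cells of the same library. The PT-like ratio was 0.70 (0.41 to 0.99), and it passed the 2-fold limit when each cell counted equally (1.38), without the top cells (1.60), without barcodes with distal markers (1.37) and at resolution 0.4 (1.79), where injured PT-like cells were included. The thin limb or IM-CD-like ratio of 2.12 (1.52 to 2.76) rests on 29 and 115 UMIs and is not read as a difference in these cells.

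The median log2 ratio of the members in PT-like cells was -0.40, the value of *Cd24a*, against 0.03 over all genes. There 5 of the 9 members were below 0 and 2 above 0 beyond their intervals. These counts include *Clu*, *Cd24a* and *Klk1*, all read as background in these cells. In injured PT-like cells the median was -0.06 against 0.06, and in thin limb or IM-CD-like cells 0.21 against -0.01. In TAL-like cells it was 0.13 against 0.09 and in DCT-like cells 0.04 against 0.11. The other 3 classes had medians from -0.03 to 0.04. Medians of 7 to 9 genes that share their libraries are given as a description only.

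**Figure D5:**
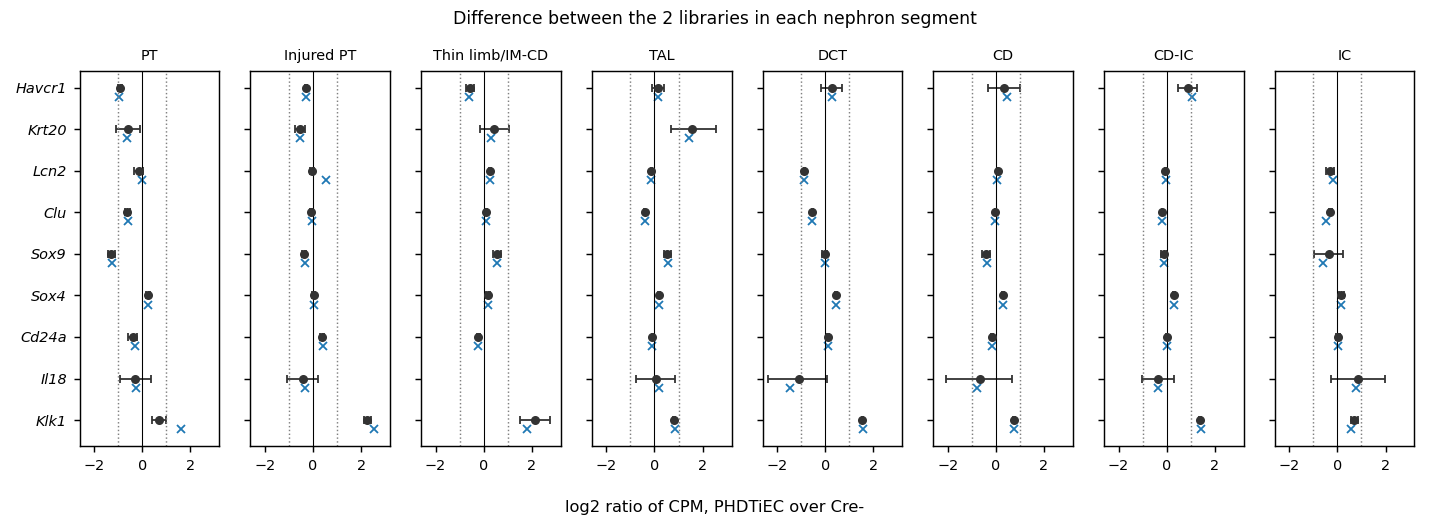
Log2 ratio of CPM, the library labelled PHDTiEC over Cre-, of each member in each nephron-like class, with Clopper-Pearson 95% intervals; blue crosses are the values without the cell with most UMIs in each library, dotted lines mark 2-fold, and pairs under 20 UMIs are left out. *Klk1* lies to the right of 0 in all 8 panels (in IC-like cells not with free RNA subtracted or at a mitochondrial limit of 20%), and *Havcr1* and *Sox9* lie to the left in PT-like cells (-0.94 and -1.29). In PT-like and thin limb or IM-CD-like cells *Klk1* was under the level of T- and NK-like cells of the same library.

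More members were detected per cell in TAL-, DCT-, CD- and CD-IC-like than in PT-like cells. *Lcn2*, *Clu*, *Cd24a* and *Klk1* also had higher levels there, and detection together beyond these levels was not tested. In thinned cells the median number of the 9 members with a UMI was 1 in PT-like cells of both libraries, 3 in injured PT-like and 4 in TAL-, DCT-, CD- and CD-IC-like cells. At least 5 members were found in 30.7% of DCT-like cells of Cre- and 45.7% of those of the library labelled PHDTiEC. *Klk1* and *Sox4* had higher shares in the latter. At least 5 were found in 8.16% and 11% of injured PT-like cells. In IC-like cells it was 3.01% and 3.13%, and the median was 3.

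A cluster of 63 and 50 cells was led by cell cycle genes, with *Mki67* and *Top2a* in at least 50% of its cells, and is given no cell type here. It held 9.55 and 12.7 UMIs of the injured PT markers per 10000, against 19.5 and 17.7 in injured PT-like cells, and 25.4% and 18% of its cells carried at least 20 distal marker UMIs per 10000, against 5.10% and 11.4%. *Havcr1* had 74.5 and 86.7 CPM in this cluster, *Lcn2* 2303 and 1829 CPM and *Clu* 6687 and 4668 CPM. The log2 ratio was 0.97 (0.69 to 1.25) for *Klk1* and -0.52 (-0.55 to -0.48) for *Clu*. *Klk1* had 66.8 and 131 CPM, and the estimated free RNA was 97.4% and 85.5% of these levels. The *Klk1* ratio is therefore not read as a difference in this cluster. The part of distal cells in the levels of this cluster was not tested.

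The 30 other injury genes listed for comparison gave 238 pairs with at least 20 UMIs, of which 12 were at least 2-fold higher and 9 at least 2-fold lower. Over all genes and the same classes, 1.43% of pairs were higher and 1.25% lower by the same rule. *Ccn2*, which encodes a matricellular growth factor, was higher in 6 classes, among them injured PT-like cells (34.3 and 91.3 CPM, ratio 1.41, 1.22 to 1.61). *Ccl2*, a monocyte chemokine, was higher in thin limb or IM-CD-like (69.0 and 194 CPM) and CD-like cells (14.3 and 35.6 CPM) and lower in IC-like cells (13.7 and 5.17 CPM). *Krt19*, a simple epithelial keratin, was higher in injured PT-like (15.7 and 36.3 CPM) and IC-like cells, *Vim*, the mesenchymal filament gene, in CD-like cells (34 and 69.9 CPM), and *Egf*, a growth factor gene of the distal nephron, in injured PT-like cells, on 8 and 23 UMIs. *Umod*, which encodes uromodulin of the TAL, was lower in DCT-like (2307 and 957 CPM), thin limb or IM-CD-like and CD-like cells. *C3*, a complement component, was lower in DCT-like (120 and 55.0 CPM), CD-IC-like and IC-like cells, *Timp1*, a metalloproteinase inhibitor, in CD-IC-like and *Cxcl10*, a T-cell chemokine, in IC-like cells. Of these, *Umod* was a TAL marker used to name a class, so its levels in other classes can carry TAL RNA.

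The genes whose log2(CPM + 1) was most like each member over the 16 sums of class and library were, by Pearson's r, *Cstb*, *Plekhf1* and *Mrpl33* for *Havcr1* (0.967 to 0.973) and *Carhsp1*, *Spaca7* and *Eif6* for *Krt20* (0.962 to 0.968). For *Sox9* they were *Steap4*, *Eif1ax* and *Arsa* (0.883 to 0.895), and for *Sox4* *Cuedc1*, *Hsp90ab1* and *Daam1* (0.960 to 0.964). *Lcn2* was most like *Anxa6*, *Rdh12* and *Efna5* (0.969 to 0.971), *Clu* like *Cdc42ep5*, *Pik3ip1* and *Prkaa1* (0.978 to 0.983), and *Cd24a* like *Dsp*, *Ckap4* and *Fam110a* (0.982 to 0.990). *Il18* was most like *Rfk*, *Cenpv* and *Lamtor3* (0.857 to 0.885) and *Klk1* like *Kcnj1*, *Klk1b24* and *Klk1b9* (0.958 to 0.964). The points share 8 classes, 2 libraries and their depth, so these values are a description without a test.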

How the data were processed

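Single-cell suspensions were run with the 10X Genomics Chromium 3′ kit, and the authors counted unique molecular identifiers with Cell Ranger on mm10 (version not stated in the sources used here). The deposited counts are whole numbers for every barcode, with no filter or normalization. Barcodes with 500 to 100000 UMIs, at least 200 genes and at most 50% mitochondrial UMIs were kept. Cells were clustered in Seurat 5.3.0 (R 4.3.3; 1991 of 2000 variable genes, with 8 members and 1 kallikrein copy left out and *Il18* not variable, 20 principal components, resolution 0.8, 29 clusters) and named by marker lists. UMIs were summed per class and library. Intervals are exact Poisson, exact binomial or, for ratios, Clopper-Pearson on the split of the counts, at 95%, and cover counting error only. A pair was called with at least 20 UMIs, a 2-fold difference and an interval away from 0. A count of 0 is given as the limit that 3 counts set. Doublets were scored in scanpy 1.11.5 (143 and 159 barcodes over a threshold of 0.25, set by hand because the automatic one marked 0). 3′ ends were compared by blastn 2.17.0, positions are from GENCODE vM21, and 32158 of 32285 gene identifiers matched. TMM factors came from edgeR 4.0.16. The ratio was tested on simulated data. The genes named are the 9 members, the 30 listed injury genes past the 2-fold rule, the 3 genes most like each member among those with at least 100 UMIs, and the kallikrein copies. Transport and adhesion genes beside *Havcr1* were class markers. The members and lists were chosen with earlier results of these data known.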

Additional observations from a re-analysis of the deposited data

Results flagged for a closer look

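For 3 members the log2 ratio was at least 0.5 in one direction in some nephron-like classes and at least 0.5 in the other direction in others, each with an interval away from 0. For *Havcr1* it was 0.87 in CD-IC-like cells, -0.94 in PT-like cells and -0.57 in thin limb or IM-CD-like cells. Its CD-IC-like level in Cre- did not exceed that of T- and NK-like cells beyond its interval. For *Krt20* it was 1.58 in TAL-like cells, -0.59 in PT-like cells and -0.54 in injured PT-like cells. For *Sox9* it was 0.54 in thin limb or IM-CD-like cells, 0.54 in TAL-like cells and -1.29 in PT-like cells. The thin limb or IM-CD-like *Sox9* ratio was -0.02 without barcodes that carried PT and injured PT markers. The difference between the classes was not tested, since each genotype had 1 library.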

How the results depend on the processing

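No paired analysis was possible because each genotype had 1 library. The 13 alternatives were set with earlier results of these data known, and 3 more were added after these values were seen: leaving out barcodes with markers of the other part of the nephron, barcodes kept in both libraries, and pairs at or below the level of T- and NK-like cells. Higher pairs numbered 4 to 7 and members with the same highest class 5 to 8 against 5 and 6. With cells weighted equally and with free RNA subtracted no interval was computed. Pairs were called there on the count minimum and the ratio alone. Lower pairs numbered 1, but 4 at a mitochondrial limit of 20%, 0 at resolution 0.4, and 2 with TMM scaling, with cells weighted equally, with free RNA subtracted and without the top cells; the cause was not tested except at resolution 0.4, where PT-like and injured PT-like cells formed 1 class. At resolution 0.4 only 42 of the 66 pairs had a value, and the injured PT-, CD- and IC-like pairs had none. Its classes are therefore not all those of the main resolution. *Klk1* in injured PT-like cells ranged from 2.09 to 3.10 over the other alternatives. No 2-fold difference reversed. Subtracting free RNA gave no value for 13 pairs. Depth limits the *Il18* and distal *Krt20* ratios, which rest on few UMIs.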
